A study of Mus musculus with 16 samples.

Results

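The medial prefrontal cortex of mice exposed to prenatal stress (PNS), that is, born to dams stressed while pregnant, was compared between 14 days (P14) and 1 day (P1) after birth. The comparison took the 4 PNS P14 and the 4 PNS P1 libraries, chosen by their labels, from a series of 16. Genes were compared where the tables of both ages list them, which holds for 18268 genes out of 19014 listed at P14 and 19748 at P1. All animals were male mice of the outbred ICR stock, with no engineered allele named in the labels, and every one of the 8 libraries carries the prenatal stress. The other 8 libraries come from offspring of unstressed dams (Ctrl), 4 at P14 and 4 at P1, and were used here for the estimate of spread and to test whether the change with age differed between PNS and Ctrl. Poly(A) RNA of the dissected tissue was sequenced in bulk. The labels do not say whether the libraries come from separate animals or litters, or whether tissue was pooled, so each p-value reflects only how these samples vary, which may be technical. Each age was normalized by the authors in a table of its own, and age and any difference in the handling of the ages cannot be told apart.

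Around birth the rodent frontal cortex still holds dividing progenitors and young neurons that grow axons and settle in their layers. In the following weeks synapses form in large numbers, several receptor and channel subunits are exchanged for mature forms, and GABA comes to inhibit as the neuronal chloride exporter KCC2 accumulates. Interneurons, which are born in the medial and caudal ganglionic eminences (MGE and CGE) and migrate into the cortex, take on their neuropeptides and calcium-binding proteins over the same period, while astrocytes mature and oligodendrocytes begin to form myelin.

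Depth differed with age: 26.6 to 40.9 M reads per library at PNS P14 and 48.0 to 58.8 M at PNS P1. Libraries of a group differed from each other beyond counting noise in every pair, and the first principal component of the 8 libraries, with 87.5% of the variance, separated the ages. Markers of excitatory and inhibitory neurons were present in all 8 libraries, with at least 91.3 CPM of Slc17a7 and 57.7 CPM of Gad1. Genes of the neighbouring olfactory bulb stood apart within PNS P1: the summed level of the 10 listed bulb genes was 65.1, 62.3, 56.8 and 73.0 CPM at P14 and 151, 323, 245 and 27.6 CPM at P1. CPM here are counts per 1 M reads after TMM scaling between libraries. Replicates 1, 2 and 3 of PNS P1 were thus high and replicate 4 was low. PNS P1 replicate 4 had the highest level of the heart and skeletal muscle gene Myh6, 5.92 CPM against 0.84 to 1.03 CPM in the other P1 libraries. PNS P14 replicate 4 had a summed red cell level of 849 CPM against 153 to 205 CPM in the other P14 libraries and the lowest myelin level, and PNS P14 replicate 3 had the lowest level of activity-induced genes. Values with and without these libraries are given for part of the results that rest on them. Lists given without such values may still depend on these libraries. Where PNS P14 was set against PNS P1 replicate 4 alone, the fit assumes that this single library varies like the other groups.

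**Figure D1:**
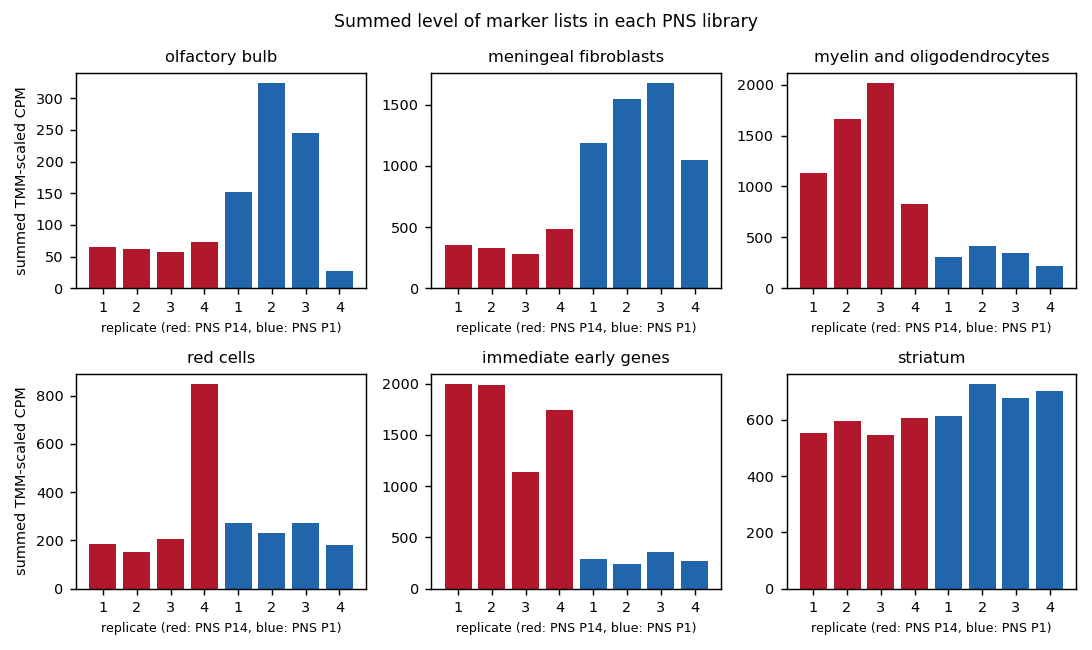
Summed TMM-scaled CPM of 6 marker lists in each PNS library, with the 4 P14 libraries (red) left of the 4 P1 libraries (blue). Bulb genes range from 27.6 to 323 CPM within P1, myelin genes from 829.5 to 2012 CPM within P14, and red cell genes reach 849 CPM in 1 P14 library.

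Most genes differed between the ages. Of 17139 genes that passed the filter on low counts, 12392 (72.3%) passed an adjusted p of 0.05 in edgeR's quasi-likelihood test with Benjamini-Hochberg adjustment, 5875 (34.3%) higher at P14 and 6517 (38%) lower. At a fold of at least 2 in addition, 5279 genes (30.8%) passed, 2575 (15%) higher and 2704 (15.8%) lower. The 4 P14 values did not overlap the 4 P1 values for 10909 genes (63.7%). The split depends on the scaling between libraries: with total reads in place of TMM, which lowers the median log2 difference of all genes by 0.27, 4121 genes were higher and 8660 lower, so that 32.2% of calls were higher in place of 47.4%. The counts of list members below are to be read against these shares. In bulk tissue, fewer cells of a type and less RNA per cell cannot be told apart.

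The named genes with the largest rises by P14 included genes of synapses and myelin, and those with the largest falls included genes of progenitors and growing axons. Hkdc1, a hexokinase family member on chromosome 10 (GRCm38 62383137 to 62422491), had 27.4, 24.9, 19.1 and 21.2 CPM at P14 and 0.12, 0.27, 0.18 and 0.11 CPM at P1. Its log2 difference of 7.07 ± 0.20 (SE) was the largest among named genes of at least 20 CPM (edgeR adjusted p = 3.6e-14). Itpka, an inositol trisphosphate kinase of dendritic spines, had 162 to 173 CPM at P14 and 2.22 to 3.58 CPM at P1. The zinc transporter of synaptic vesicles Slc30a3 had 145 to 240 CPM at P14 and 2.89 to 5.24 CPM at P1. The adrenergic receptor Adra1d (log2 5.85), the cholecystokinin receptor Cckbr (5.18), the sushi domain protein gene Susd5 (5.85) and Cntnap1, the paranodal partner of contactin (5.28), were also among the 10 highest, with Mag, Egr4 and Arc described below. These 10, and the 10 largest falls below, were taken only from genes without overlap between the ages. Their lack of overlap follows from that choice.

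At the other end, Igfbpl1, an insulin-like growth factor binding protein relative of young neurons on chromosome 4, had 0.91, 0.78, 2.48 and 0.91 CPM at P14 and 172, 197, 220 and 190 CPM at P1, a log2 difference of -7.16 ± 0.33 (edgeR adjusted p = 5.1e-12). Draxin, a secreted axon guidance protein, had 1.14 to 2.13 CPM at P14 and 125 to 151 CPM at P1. The glypican Gpc2 (log2 -5.75) and the ubiquitin ligase family member Trim67 (-5.23) fell as well. So did the RNA-binding protein gene Mex3a (-5.07) and the glycosyltransferase gene B3gnt5 (-4.78). B3gnt5 had 1.23 to 1.58 CPM at P14 and 34.5 to 43.6 CPM at P1. Spp1, which encodes osteopontin, had 0.56 to 0.79 CPM at P14 and 36.5, 63.1, 69.7 and 9.79 CPM at P1, so its P1 level was lowest in the library with the fewest bulb reads. Its log2 difference was -6.04, and -3.85 against that library alone. The largest fitted fall among the genes named for size, that of the ribosomal pseudogene Rps3a3 (log2 -9.84 ± 2.71), rested on 3 reads in all at P14 and on 4, 1384, 2172 and 2669 reads at P1. Its P1 to P14 ratio was 1037 with a counting interval of 355 to 5030 (95%, exact), and reads of such a copy cannot be separated with certainty from those of its parent gene. In Ctrl, Rps3a3 varied widely within each age, with a mean of 4.59 CPM (SD 9.12) at P14 and 16.25 CPM (SD 12.72) at P1. Its change with age in Ctrl did not pass (log2 -1.655, edgeR adjusted p = 0.269). Predicted genes were only counted: 42 of them were at least 8-fold higher and 41 at least 8-fold lower, among 285 and 202 such genes in all.

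**Figure D2:**
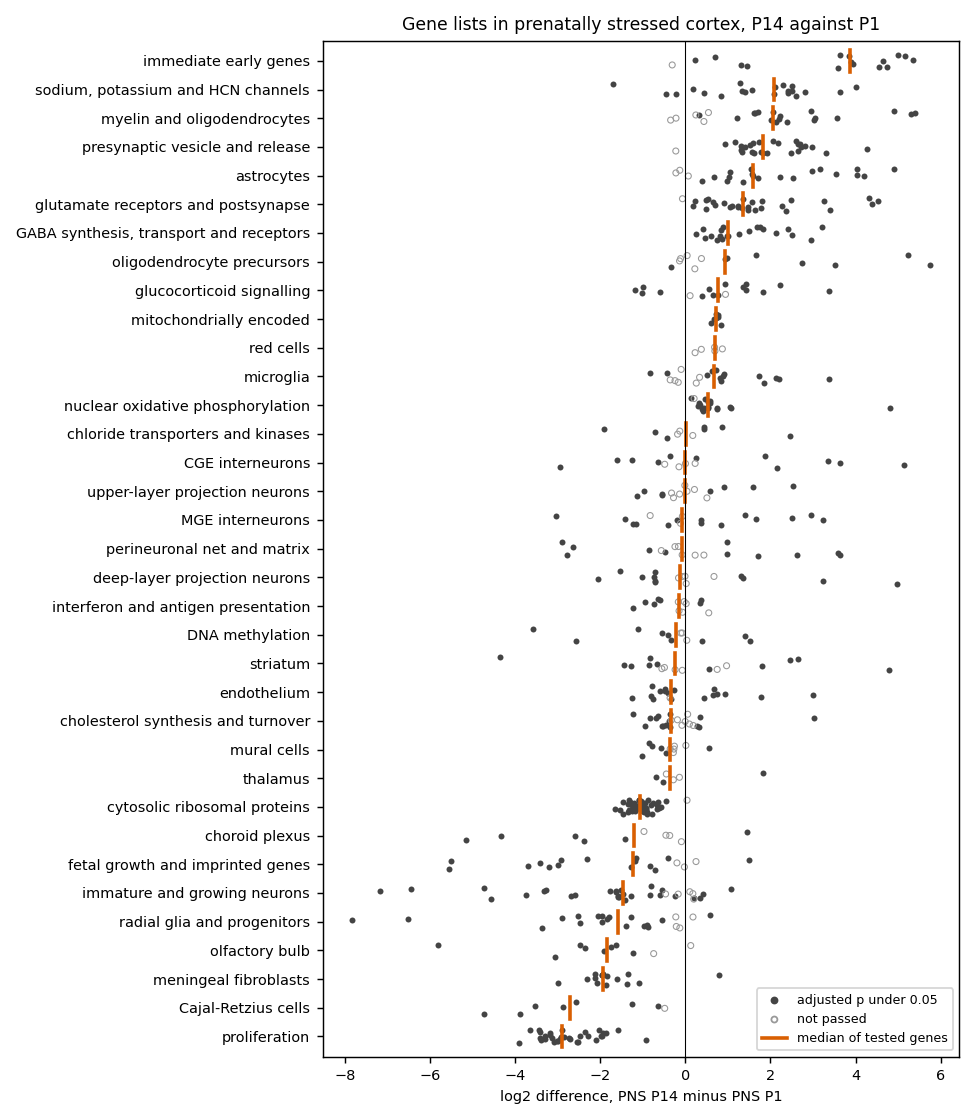
Log2 differences, PNS P14 minus PNS P1, of each tested gene of 35 lists, with filled points for genes that passed and a bar at each list's median. Medians run from 3.88 for immediate early genes to -2.91 for proliferation genes.

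Cell division genes were lower at P14 as a group. All 33 listed proliferation genes fell, 32 of them at least 2-fold, with a median log2 difference of -2.91 against -0.07 over all genes tested. Mki67, whose protein coats mitotic chromosomes, had 3.15, 4.18, 3.61 and 4.27 CPM at P14 and 33.9, 39.0, 49.8 and 26.9 CPM at P1. Top2a, the topoisomerase of dividing cells, had 2.64, 2.43, 3.32 and 2.81 CPM at P14 and 31.4, 40.2, 44.0 and 24.8 CPM at P1, a log2 difference of -3.64 ± 0.24 (edgeR adjusted p = 3.7e-10). Cyclin B1 (Ccnb1) fell by 3.43 on the log2 scale and Aurkb, a mitotic kinase, by 3.91. The replication helicase subunits Mcm2 to Mcm7 fell by less, with log2 differences of -1.59 to -2.85, and Pcna, the sliding clamp that also serves DNA repair, had the smallest fall (log2 -0.91).

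Because these genes moved together, their promoters are shown. In RefSeq sequence of GRCm38.p6 from 250 bases before to 50 after the start, 28 of the 33 genes matched, with 30 promoters. The cell cycle homology region TTTGAA was found on either strand in 53.3% of them and in 17.9% of all 32851 promoters of that length in the table, the CCAAT box in 86.7% and 37.4%, both together in 53.3% and 6.95%, and the E2F forms TTTGGCGC, TTTCCCGC, TTTGCCGC or TTTCGCGC in 20% and 2.26%. These shares are descriptions of letters, not of bound sites, and a TTTGAA and a CCAAT that abut can share a base. The 4 members with the highest P1 level that hold both TTTGAA and CCAAT are printed on the gene's strand, 5′ to 3′, with either motif in capitals (TTCAAA and ATTGG where it lies on the other strand). All of them are minus-strand genes, at chr7:135716330-135716629 (Mki67), chr11:99024140-99024439 (Top2a), chr6:88898731-88899030 (Mcm2) and chr1:189688037-189688336 (Cenpf).
Mki67: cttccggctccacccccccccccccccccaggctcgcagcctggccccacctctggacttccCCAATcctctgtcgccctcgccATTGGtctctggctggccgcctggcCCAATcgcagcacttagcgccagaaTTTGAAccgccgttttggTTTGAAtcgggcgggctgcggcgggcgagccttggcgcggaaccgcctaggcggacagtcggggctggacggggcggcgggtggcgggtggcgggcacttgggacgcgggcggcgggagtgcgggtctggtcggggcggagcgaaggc
Top2a: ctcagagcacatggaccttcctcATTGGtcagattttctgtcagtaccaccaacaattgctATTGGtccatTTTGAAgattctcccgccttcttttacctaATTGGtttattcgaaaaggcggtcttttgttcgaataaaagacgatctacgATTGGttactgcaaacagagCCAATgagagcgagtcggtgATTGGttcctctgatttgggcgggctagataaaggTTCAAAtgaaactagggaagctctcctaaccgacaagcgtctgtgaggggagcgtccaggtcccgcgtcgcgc
Mcm2: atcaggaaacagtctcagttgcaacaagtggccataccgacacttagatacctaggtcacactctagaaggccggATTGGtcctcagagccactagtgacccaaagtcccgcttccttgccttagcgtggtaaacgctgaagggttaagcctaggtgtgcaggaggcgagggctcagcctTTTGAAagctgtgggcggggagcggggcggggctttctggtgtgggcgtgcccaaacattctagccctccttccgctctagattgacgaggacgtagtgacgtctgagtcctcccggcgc
Cenpf: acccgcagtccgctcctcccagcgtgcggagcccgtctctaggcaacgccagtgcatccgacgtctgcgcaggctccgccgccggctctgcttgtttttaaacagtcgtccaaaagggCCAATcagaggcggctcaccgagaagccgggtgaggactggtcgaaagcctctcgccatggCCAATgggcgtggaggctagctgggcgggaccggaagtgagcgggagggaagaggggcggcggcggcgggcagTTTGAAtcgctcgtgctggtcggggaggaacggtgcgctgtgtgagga
The Top2a window holds 6 CCAAT boxes and the Mki67 window 3, and the first base of TTTGAA lies 116 and 98 bases before the start in Mki67, 179 and 23 before it in Top2a, 70 before it in Mcm2 and 2 bases past it in Cenpf.

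Progenitor genes were lower too. Of 22 tested genes of radial glia and progenitors, 17 fell, 1 rose and 4 did not pass, with a median log2 difference of -1.59. The median was -1.12 against PNS P1 replicate 4 alone. Fabp7, the fatty acid binding protein of radial glia, had 67.3 to 98.3 CPM at P14 and 341 to 513 CPM at P1, and the intermediate filament genes Nes and Vim fell by 1.96 and 2.04 on the log2 scale. Neurog2, a proneural factor, had 0.59 to 1.31 CPM at P14 and 7.40 to 12.1 CPM at P1. Pax6, a regulator of cortical radial glia that olfactory bulb interneurons also use, had 4.63 to 7.11 CPM at P14 and 13.1, 17.8, 18.7 and 7.54 CPM at P1. Its log2 difference of -1.39 was called, but was -0.47 (adjusted p = 0.323) against PNS P1 replicate 4 alone. Sox2, the stem cell factor, behaved likewise, with a log2 difference of -0.56, and of -0.29 (adjusted p = 0.185) against that library alone. Hes1, a Notch target, was the member that rose (log2 0.58 ± 0.15, adjusted p = 0.0023), with 9.21 to 14.7 CPM at P14 overlapping 6.83 to 9.27 CPM at P1. Its difference was 0.88 against PNS P1 replicate 4 alone, and it did not pass with total reads (log2 0.30, adjusted p = 0.10).

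Eomes, the factor of intermediate progenitors that bulb projection neurons also express, had 3 or 4 reads in each P14 library and 1470, 2530, 1757 and 165 reads at P1. Its P1 to P14 ratio was 228 with a counting interval of 133 to 428, and the fitted log2 difference of -7.84 shrank to -4.49 against PNS P1 replicate 4 alone. The order of the P1 libraries was that of their summed bulb genes, and the part of bulb tissue in this fall was not tested.

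Genes of immature and growing neurons fell in most members but not in all. Of 33 tested genes, 24 fell, 4 rose and 5 did not pass (median log2 -1.46), and with total reads 25 fell and 1 rose. Dcx, the microtubule protein of migrating neurons, had 89.0, 95.4, 96.1 and 110 CPM at P14 and 1224, 1262, 1349 and 1409 CPM at P1, a log2 difference of -3.75 ± 0.10 (edgeR adjusted p = 2.5e-14). Sox11 and Sox4, transcription factors of postmitotic neurons, fell by 4.57 and 3.31, and Nhlh2, which is also in the Cajal-Retzius list below, by 4.73. Tubb3, the neuronal tubulin, fell by 1.28, with 1626 CPM in P14 replicate 4 against 972 to 1055 CPM in the other P14 libraries and 2612 to 3150 CPM at P1. Gap43, a growth cone protein that stays in plastic axons, did not pass (749 to 1048 CPM at P14, 878 to 1054 CPM at P1, adjusted p = 0.188), although without PNS P14 replicate 4 it passed as lower (log2 -0.27). Dclk1, a kinase relative of Dcx, rose in every library against every P1 library (1334 to 1626 CPM at P14, 643 to 723 CPM at P1).

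Fetal growth and imprinted genes fell in 14 of 18 tested members, with a median log2 difference of -1.23. The median was -0.83 against PNS P1 replicate 4 alone. The imprinted non-coding RNA H19 had 5.35, 2.88, 2.43 and 5.42 CPM at P14 and 108, 187, 290 and 132 CPM at P1. Its neighbour Igf2, a fetal growth factor also made by meninges and vessels, fell by 2.30, and Igf2bp2 and Hmga2, regulators of fetal cells, by 3.68 and 5.56. Igf2bp1 had 4.604, 4.34, 4.39 and 5.74 CPM at P1 and its P14 level was not analysed here. Peg3 rose by 1.49, with 236 to 265 CPM at P14 and 75.01 to 115 CPM at P1, while Plagl1, Ndn and Meg3 did not pass.

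**Figure D3:**
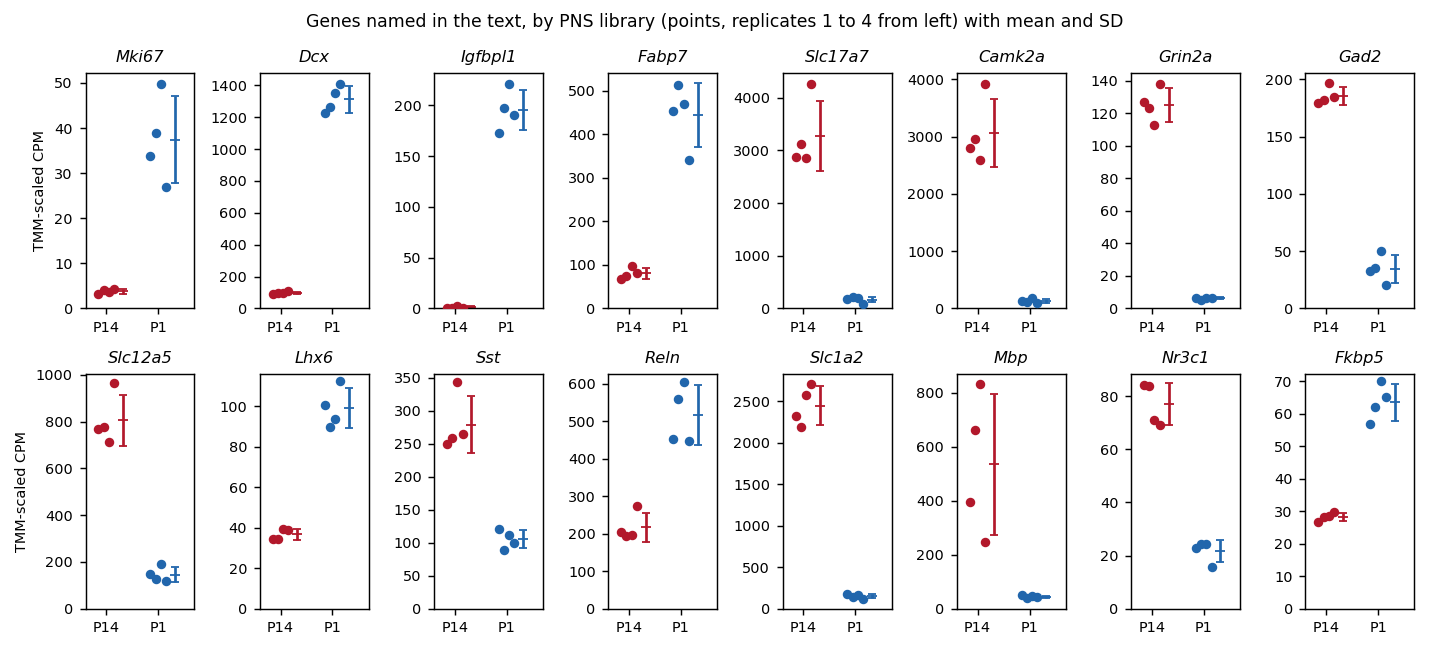
TMM-scaled CPM of 16 genes in each PNS library, P14 in red at the left and P1 in blue at the right, with the mean and SD of 4 libraries beside the points. The 16 were picked from the named genes, and in each the ages do not overlap, as in 63.7% of all genes tested. Named genes that overlap, such as Gap43 and Slc17a6, are not shown. Dcx has 89.0 to 110 CPM at P14 and 1224 to 1409 CPM at P1. Camk2a has 2589 to 3916 CPM at P14 and 98.3 to 174 CPM at P1.

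Synaptic genes were higher at P14 almost throughout. Of 27 tested presynaptic genes 26 rose, 25 of them at least 2-fold, with a median log2 difference of 1.82. The vesicular glutamate transporter Slc17a7 (VGLUT1) had 2871, 3123, 2852 and 4258 CPM at P14 and 182, 209, 196 and 91.3 CPM at P1, a log2 difference of 4.27 ± 0.23 (edgeR adjusted p = 3.9e-11). The vesicle proteins Syp and Sv2b rose by 2.80 and 3.29, and Snap25, a SNARE protein of vesicle fusion, by 2.61 (1215 to 1625 CPM at P14, 222 to 266 CPM at P1). Slc17a6 (VGLUT2), used by thalamic and immature cortical axons, was the member that did not pass, with 25.6 to 31.3 CPM at P14 and 22.4 to 41.9 CPM at P1. It passed as lower with total reads as the scaling (log2 -0.50) and without PNS P1 replicate 4 (log2 -0.37).

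On the postsynaptic side 28 of 29 tested genes rose (median log2 1.36), although Gria1, an AMPA receptor subunit with 292 to 353 CPM at P14 and 256 to 292 CPM at P1, turned to -0.08 with total reads and lost its call without PNS P14 replicate 3 or 4 or PNS P1 replicate 1 or 2 (log2 0.13 to 0.20). Camk2a, the calcium-dependent kinase of spines, had 2794, 2959, 2589 and 3916 CPM at P14 and 138, 120, 174 and 98.3 CPM at P1 (log2 4.53 ± 0.20, edgeR adjusted p = 2.3e-12). Nrgn, a calmodulin-binding postsynaptic protein, rose by 4.38. Among NMDA receptor subunits, Grin2a (GluN2A) had 127, 123, 113 and 138 CPM at P14 and 6.59, 5.45, 6.56 and 6.40 CPM at P1, whereas Grin2b (GluN2B), which dominates early, had 383 to 461 CPM at P14 and 234 to 301 CPM at P1. The rise of Grin2b (log2 0.54) lost its call against PNS P1 replicate 4 alone (log2 0.42, adjusted p = 0.0879). The AMPA subunit Gria2 rose by 1.36 and the scaffold Dlg4 (PSD-95) by 1.79. Cnih2, an AMPA receptor auxiliary protein, did not pass.

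All 21 tested genes of GABA synthesis, transport and receptors were higher at P14 (median log2 0.99), although with total reads 17 passed and Gabra5 turned to -0.02. The enzymes that make GABA differed in size of change. Gad2 had 179, 182, 196 and 184 CPM at P14 and 32.5, 35.5, 50.2 and 20.7 CPM at P1 (log2 2.42 ± 0.24, edgeR adjusted p = 1.1e-07). Gad1 had 172, 168, 192 and 160 CPM at P14 and 89.0, 98.6, 140 and 57.7 CPM at P1 (log2 0.85 ± 0.26, edgeR adjusted p = 0.0081), and with total reads it did not pass (log2 0.58, adjusted p = 0.065). Both genes, and the vesicular GABA transporter Slc32a1 (log2 0.99), had their lowest P1 level in the library with the fewest bulb reads, and the part of bulb tissue in these levels was not tested. Against that library alone the log2 differences were 3.16 for Gad2, 1.58 for Gad1 and 1.62 for Slc32a1, and the list median was 1.58.

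GABA-A receptor subunits rose to different degrees. The extrasynaptic delta subunit Gabrd rose by 2.95. Gabra2 rose by 0.88, and Gabra5 by 0.26, a call lost against PNS P1 replicate 4 alone (log2 0.15, adjusted p = 0.268). Of 10 chloride transporters and their kinases, 4 rose and 3 fell (median log2 0.02, or -0.26 with total reads, where 3 rose and 5 fell). Slc12a5, which encodes the chloride exporter KCC2, had 767, 779, 711 and 963 CPM at P14 and 148, 128, 190 and 117 CPM at P1 (log2 2.47 ± 0.15, edgeR adjusted p = 1.8e-10). Slc12a2, which encodes the chloride importer NKCC1, had 27.6 to 34.3 CPM at P14 and 28.4 to 38.5 CPM at P1, ranges that overlap (log2 -0.13, adjusted p = 0.265). With total reads it passed as lower (log2 -0.41). The exporter Slc12a7 fell by 1.92, and Wnk3, a kinase that regulates these transporters, fell by 0.70.

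Ion channel genes rose in 18 of 21 tested members and fell in 3 (median log2 2.08). The sodium channel beta subunit Scn2b rose by 4.002. Scn1a, the main sodium channel of fast interneurons, had 90.0, 92.1, 76.2 and 62.5 CPM at P14 and 14.8, 17.0, 9.89 and 18.9 CPM at P1, whereas Scn3a, the embryonic form, had 48.2 to 54.8 CPM at P14 and 67.8 to 78.9 CPM at P1. Kcnc1, a potassium channel of fast-spiking cells, rose by 0.84, and Hcn4, a pacemaker channel, fell by 1.69 (17.7 to 29.0 CPM at P14, 64.2 to 79.5 CPM at P1).

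Ratios of related genes within a library do not depend on the scaling between libraries, and 11 such ratios of reads per kilobase of exon were computed. In 10 of them the 4 P14 values and the 4 P1 values did not overlap. Each of these has the smallest two-sided exact permutation p that 4 against 4 libraries can give (0.0286, unadjusted). Among all single genes tested 63.7% did not overlap either, and the pairs were chosen with earlier results of these data known. The share over other gene pairs was not computed. Grin2a had 0.46, 0.44, 0.40 and 0.41 reads per kilobase for each of Grin2b at P14 and 0.033, 0.032, 0.030 and 0.030 at P1, a log2 change of 3.78. The Scn1a to Scn3a ratio was 1.34 to 2.09 at P14 and 0.162 to 0.279 at P1, so the more abundant of the 2 transcripts per kilobase differed between the ages. Slc12a5 to Slc12a2, the exporter over the importer, was 40.8, 35.9, 30.4 and 47.6 at P14 and 6.85, 5.14, 7.23 and 6.04 at P1. The adult over the young tubulin, Tubb4a to Tubb2b, changed by 4.61 on the log2 scale, Slc17a7 to Slc17a6 by 4.51, and Cox6a2 to Cox6a1, the muscle and neuron form of a cytochrome oxidase subunit over the general form, by 4.31. Dlg4 to Dlg3 changed by 0.45. Hapln4 to Hapln1 overlapped fully (0.34 to 0.72 at P14, 0.21 to 1.08 at P1, exact permutation p = 1).

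**Figure D4:**
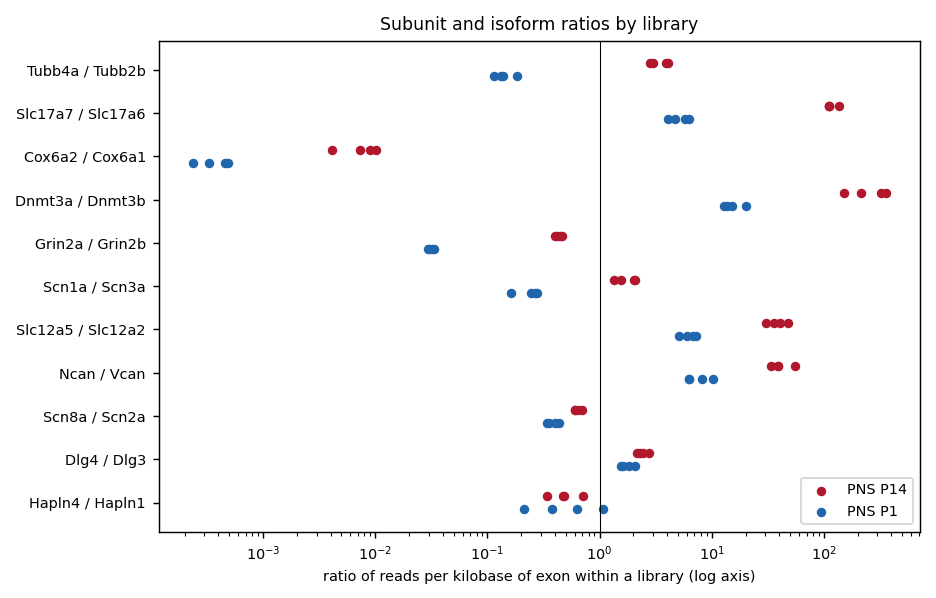
Ratio of reads per kilobase of exon of 2 related genes within each library, on a log axis, for PNS P14 (red, upper row of each pair) and PNS P1 (blue, lower row), with a line at 1. Of 11 ratios, Hapln4 to Hapln1 overlaps between the ages and the other 10 do not, where 63.7% of all single genes tested do not.

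Interneuron lists split between genes that rose and genes that fell, as did all genes tested (34.3% higher and 38% lower). Of 17 tested MGE interneuron genes 8 rose and 6 fell (median log2 -0.07), and of 15 CGE genes 6 rose and 5 fell (median 0.00). With total reads 6 rose and 8 fell in the first list and 5 rose and 8 fell in the second. In the MGE list the transcription factors named next fell, while Satb1 rose by 0.37 and Sox6 did not pass. Lhx6 had 34.5, 34.5, 39.3 and 38.9 CPM at P14 and 101, 89.7, 93.5 and 112 CPM at P1 (log2 -1.43 ± 0.08, edgeR adjusted p = 5.7e-11), and Maf fell by 1.16 and Nkx2-1 by 3.03. Sst, which encodes somatostatin, had 249, 259, 344 and 264 CPM at P14 and 121, 88.9, 112 and 99.6 CPM at P1 (log2 1.40 ± 0.12, edgeR adjusted p = 1.9e-08), Tac1 rose by 2.95, and Crhbp, the CRH binding protein, by 3.24. Npy, another interneuron peptide, did not pass (50.9 to 69.2 CPM at P14, 35.1 to 76.5 CPM at P1, adjusted p = 0.756), and its difference was 0.72 against PNS P1 replicate 4 alone. Pvalb, which encodes parvalbumin, had 9.25, 7.17, 4.99 and 3.75 CPM at P14 and its P1 level was not analysed here.

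In the CGE list, Vip had 32.5, 29.0, 43.8 and 24.7 CPM at P14 and 3.25, 2.82, 2.13 and 2.31 CPM at P1 (log2 3.63 ± 0.25, edgeR adjusted p = 8.4e-10), and Lamp5, a membrane protein of neurogliaform and other neurons, rose by 5.13. Cck, a peptide of CGE interneurons that pyramidal cells also transcribe, rose by 3.36. The factors Nr2f2 and Sp8 fell by 1.60 and 2.94. Sp8, also a factor of bulb interneurons, had 2.52 to 4.29 CPM at P14 and 17.6, 31.9, 39.6 and 8.53 CPM at P1, and its difference was -1.42 against PNS P1 replicate 4 alone. Calb2 (calretinin), with 30.7 to 36.5 CPM at P14 and 36.6, 56.0, 74.1 and 21.1 CPM at P1, did not pass (log2 -0.48), passed as lower without PNS P1 replicate 4 (log2 -0.73), and was 0.67 against that library alone. Htr3a, the serotonin receptor that marks the whole class, had 2.45 to 5.99 CPM at P14 and 3.43 to 4.56 CPM at P1 and did not pass.

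Perineuronal net and matrix genes rose in 6 of 17 tested members (35.3%) and fell in 5 (29.4%), against 34.3% and 38% of all genes. The list median was -0.07 on the log2 scale, and with total reads 6 members rose and 8 fell. The link proteins that stabilise the nets rose: Hapln1 had 69.9, 72.6, 71.5 and 34.9 CPM at P14 and 8.37, 3.94, 3.88 and 3.84 CPM at P1 (log2 3.64 ± 0.31), and Hapln4 rose by 3.58. Matrix components of the young brain fell, with log2 differences of -2.90 for Tnc, -2.64 for Vcan and -2.79 for the hyaluronan synthase Has3. Acan, the aggrecan core protein of mature nets, was low at both ages, with 2.05 to 3.48 CPM at P14 and 3.85 to 6.69 CPM at P1. Its fall of 0.85 lost its call against PNS P1 replicate 4 alone (log2 -0.48, adjusted p = 0.241).

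Layer identity genes of projection neurons changed in both directions, as did all genes tested (34.3% higher and 38% lower). Of 15 tested upper-layer genes 4 rose and 4 fell (median log2 -0.01), and of 16 deep-layer genes 4 rose and 7 fell (median -0.12). With total reads 4 rose and 7 fell in the upper-layer list, and 4 rose and 11 fell in the deep-layer list. Cux2, a homeobox factor of upper layers, had 138, 139, 113 and 185 CPM at P14 and 44.8, 49.7, 53.2 and 42.4 CPM at P1, and Calb1, a calcium buffer, rose by 2.53. Pou3f2 and Pou3f3, factors of newborn upper-layer neurons, fell by 1.14 and 0.97. In deep layers Fezf2, the selector of corticospinal neurons, did not pass, with 116 to 141 CPM at P14 and 108 to 158 CPM at P1. The corticothalamic factor Tle4 fell by 0.71 and the receptor gene Ntsr1 by 1.54, while Pcp4 rose by 3.24. Crym had 164 to 218 CPM at P14 and 64.2, 55.4, 52.2 and 126 CPM at P1, and its rise of 1.36 was 0.60 against PNS P1 replicate 4 alone (adjusted p = 0.133).

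Cajal-Retzius genes, which mark a transient cell population of layer 1, fell in 7 of 8 tested members (median log2 -2.72). Trp73, a p53 relative specific to these cells in cortex, had 1.22, 2.39, 1.18 and 1.98 CPM at P14 and 16.3, 19.7, 22.3 and 19.3 CPM at P1 (log2 -3.54 ± 0.18, edgeR adjusted p = 1.7e-11). Lhx5 fell by 3.87 and Ebf3 by 2.88. Reln, the glycoprotein that these cells and later a class of interneurons secrete, had 205, 195, 196 and 275 CPM at P14 and 453, 560, 606 and 447 CPM at P1 (log2 -1.25 ± 0.13, edgeR adjusted p = 2.5e-07).

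Astrocyte genes were higher at P14 in 19 of 22 tested members, 16 of them at least 2-fold (median log2 1.59). The glutamate transporter Slc1a2 (GLT-1) had 2320, 2193, 2571 and 2702 CPM at P14 and 179, 139, 161 and 122 CPM at P1 (log2 4.02 ± 0.12, edgeR adjusted p = 4.2e-14). The zinc transporter Slc39a12 rose by 4.89, the calcium-binding S100b by 4.21 and the potassium channel Kcnj10 by 3.17. Aqp4, the water channel of endfeet, rose by 1.60. Gja1 (connexin 43) passed narrowly with overlapping values (log2 0.38, adjusted p = 0.0436), lost its call without any 1 library other than PNS P1 replicates 2 and 3 (log2 0.22 to 0.41), and was 1.03 against PNS P1 replicate 4 alone. Without PNS P1 replicate 2 it was 0.57. Gfap (98.0 to 119 CPM at P14, 76.9 to 127 CPM at P1), Aldh1l1 and Sox9 did not pass.

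In the oligodendrocyte lineage, 18 of 23 tested myelin genes rose (median log2 2.05) and 7 of 13 precursor genes rose while 1 fell (median 0.94). Members of the precursor list differed: Enpp6 and Neu4, genes of cells about to differentiate, rose by 5.76 and 5.22, whereas Pdgfra, the receptor of precursors, did not pass (78.5 to 102 CPM at P14, 79.1 to 106 CPM at P1), although it passed as lower without PNS P14 replicate 4 (log2 -0.23). Olig2, a lineage factor, fell by 0.34, but by 0.12 against PNS P1 replicate 4 alone (adjusted p = 0.549). Mag, a myelin adhesion protein, had 26.0, 57.9, 64.7 and 18.4 CPM at P14 and 1.23, 0.89, 1.03 and 0.85 CPM at P1 (log2 5.39 ± 0.53, edgeR adjusted p = 8.3e-08). Mbp (myelin basic protein) had 397, 662, 831 and 247 CPM at P14 and 49.1, 40.0, 45.5 and 45.0 CPM at P1. Levels of these genes thus varied within P14, with replicates 2 and 3 high and replicate 4 low. Mobp followed the same order at P14 (38.3, 77.3, 106 and 10.1 CPM), and its P1 level was not analysed here.

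Microglial genes rose in 12 of 20 tested members and fell in 2 (median log2 0.68), and with total reads 10 rose and 5 fell. Without PNS P1 replicate 4 the list had 12 higher and 4 lower, and against that library alone 15 were higher (median 1.12). The homeostatic genes P2ry12 and Tmem119 rose by 2.14 and 2.21, and P2ry12 had 73.5, 80.5, 81.0 and 77.0 CPM at P14 and 19.6, 16.4, 20.5 and 14.5 CPM at P1. Cx3cr1, the fractalkine receptor, rose by 0.89, or by 1.72 against PNS P1 replicate 4 alone. The complement gene C1qa did not pass (25.1 to 31.1 CPM at P14, 17.3 to 29.7 CPM at P1), although it passed as higher without PNS P1 replicate 3 (log2 0.39). The falls of Sall1 and Tyrobp, -0.83 and -0.42, were -0.08 and 0.17 against PNS P1 replicate 4 alone. Tyrobp also lost its call without any 1 library other than PNS P14 replicate 4 and PNS P1 replicate 4 (log2 -0.44 to -0.30).

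Vascular genes changed in both directions. Of 18 tested endothelial genes 7 (38.9%) were higher and 10 (55.6%) lower, against 34.3% and 38% of all genes. The endothelial median log2 difference was -0.34. Without PNS P1 replicates 2 and 3, 7 were higher and 8 lower, and with a replicate block 7 and 7. The endothelial median was -0.21 against PNS P1 replicate 4 alone. The transporter genes of the blood-brain barrier in the list rose, with log2 differences of 3.001 for Slco1a4 (12.9 to 17.2 CPM at P14, 1.31 to 2.67 CPM at P1), 0.92 for Slc16a1, 0.67 for Slc2a1, 0.66 for Abcb1a and 0.43 for Mfsd2a, whereas the junction genes Cdh5 and Cldn5 fell by 1.26 and 0.79. In the mural list 1 of 11 rose (the pericyte gene Rgs5, log2 0.57) and 5 fell. With total reads 1 mural gene rose and 9 fell, and without PNS P1 replicates 2 and 3, 1 rose and 3 fell. Meningeal fibroblast genes fell in 14 of 15 tested members, all 14 at least 2-fold, with a median of -1.94. Col3a1, a fibrillar collagen, had 30.4, 29.1, 25.7 and 40.4 CPM at P14 and 222, 294, 301 and 177 CPM at P1. Summed meningeal levels were 278 to 488 CPM at P14 and 1050 to 1672 CPM at P1. Of 5 tested red cell genes 0 passed in edgeR (0 at an unadjusted p under 0.05), and likewise 0 in DESeq2 and limma, and Hbb-bs turned from a log2 difference of 0.69 to -0.30 without PNS P14 replicate 4.

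Genes of neighbouring tissue also differed. Of 10 tested olfactory bulb genes 8 fell (median log2 -1.83). Cdhr1, a mitral cell cadherin, had 13.9, 16.5, 15.01 and 22.4 CPM at P14 and 78.7, 174, 123 and 3.48 CPM at P1, so 3 P1 libraries lay above and 1 below every P14 library. Against PNS P1 replicate 4 alone the list had 3 genes higher and 0 lower (median 0.41), and Cdhr1 had a log2 difference of 2.28 in place of -2.48. Of 17 tested striatal genes 5 rose (29.4%) and 6 fell (35.3%), against 34.3% and 38% of all genes. The striatal median was -0.24, with Pdyn (prodynorphin) up by 4.78 and Meis2 down by 1.44. Of 10 tested choroid plexus genes 1 rose and 5 fell at low levels (median -1.19, or -0.71 against PNS P1 replicate 4 alone). Ttr, the marker of that tissue, had 5 reads in all at P14 and 208 at P1, and its call was lost under several settings. Of 6 thalamic genes 1 rose (Rora, log2 1.82) and 2 fell.

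Respiratory chain genes rose and ribosomal protein genes fell. Of 19 tested nuclear genes of oxidative phosphorylation 18 were higher at P14 (median log2 0.52), with total reads 13. Of 13 genes of the mitochondrial genome in the list only 7 were tested, and all 7 were higher (median 0.73). Cox8a, a cytochrome oxidase subunit, had 325 to 360 CPM at P14 and 153 to 169 CPM at P1, and Cox6a2 rose by 4.80. mt-Co1 had 11103, 14542, 12753 and 13626 CPM at P14 and 7114, 5723, 8953 and 7199 CPM at P1. Of 50 cytosolic ribosomal protein genes 49 fell, 30 at least 2-fold (median -1.06), with Rplp0 at 254 to 357 CPM at P14 and 883 to 932 CPM at P1. Rps2 was the exception (log2 0.04). Ribosomal protein genes have many processed copies, so single members are uncertain.

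Cholesterol genes fell in 11 of 22 tested members and rose in 4 (median log2 -0.35), and with total reads 16 fell and 1 rose. Fdps and Lss, enzymes of the synthesis pathway, fell by 1.23 and 0.94, and Hmgcs1 by 0.36, or by 0.55 against PNS P1 replicate 4 alone. Cyp46a1, the neuronal enzyme that clears cholesterol as 24-hydroxycholesterol, had 208, 218, 196 and 182 CPM at P14 and 25.8, 22.9, 26.3 and 24.0 CPM at P1 (log2 3.02 ± 0.07, edgeR adjusted p = 8.1e-15).

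Immediate early genes, which neuronal activity induces, were higher at P14 in 15 of 16 tested members (median log2 3.88), the largest median of the 35 lists. With total reads 13 passed as higher and 1 as lower. Arc, an effector at synapses, had 234, 219, 63.8 and 155 CPM at P14 and 4.52, 6.16, 6.67 and 1.57 CPM at P1 (log2 5.16 ± 0.52, edgeR adjusted p = 1.2e-07). Egr1 had 492, 515, 277 and 592 CPM at P14 and 13.9, 20.4, 26.7 and 14.3 CPM at P1, and Fos 80.5, 70.3, 28.6 and 40.5 CPM at P14 and 3.005, 4.54, 5.76 and 1.98 CPM at P1. P14 replicate 3 was lowest in all of these and still above every P1 library. Bdnf, a neurotrophin, rose by 3.93, and Nr4a3 did not pass.

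Genes of glucocorticoid signalling rose in 11 of 17 tested members and fell in 4 (median log2 0.76). The glucocorticoid receptor gene Nr3c1 had 84.1, 83.7, 71.1 and 69.3 CPM at P14 and 22.8, 24.4, 24.4 and 15.8 CPM at P1 (log2 1.82 ± 0.12, edgeR adjusted p = 3.8e-10). Hsd11b1, which regenerates active corticosterone, rose by 3.37 and the CRH receptor Crhr1 by 2.23. Fkbp5, a chaperone that glucocorticoids induce, fell, with 26.7, 28.1, 28.5 and 29.7 CPM at P14 and 56.9, 62.1, 70.3 and 65.2 CPM at P1 (log2 -1.17 ± 0.08, edgeR adjusted p = 5.5e-10). The receptor-induced gene Ddit4 fell by 0.99, and Tsc22d3 and Per1, also induced, rose by 0.55 and 1.37. The mineralocorticoid receptor gene Nr3c2 passed narrowly (log2 0.38, adjusted p = 0.0433) and lost its call without any 1 library other than PNS P14 replicate 4 and PNS P1 replicate 3 (log2 0.32 to 0.39).

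Among DNA methylation genes 3 of 12 rose and 6 fell (median log2 -0.22). The maintenance pair Dnmt1 and Uhrf1, active in dividing cells, fell by 1.11 and 3.59. Dnmt3a, the de novo enzyme of postmitotic neurons, had 355, 370, 359 and 459 CPM at P14 and 146, 142, 165 and 128 CPM at P1, while Dnmt3b fell by 2.57, so that the Dnmt3a to Dnmt3b ratio was 152 to 356 at P14 and 12.8 to 20.4 at P1. Of 13 tested interferon and antigen presentation genes 2 rose and 5 fell (median -0.15). Against PNS P1 replicate 4 alone 5 rose and 0 fell (median 0.48).

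Genes that were at least 2-fold higher at P14 tended to be longer and more highly expressed than those at least 2-fold lower. Their median genomic span was 26.8 kb, against 16.3 kb for genes lower at P14 and 21.7 kb for all genes tested, and 21.5% of them spanned more than 100 kb, against 11.7% and 14.04%. The median lengths of exon were closer, at 4.10 kb, 3.74 kb and 4.13 kb. The median level over the 8 libraries was 15.9 CPM for genes higher at P14, 4.18 CPM for genes lower and 16.2 CPM for all. Protein-coding genes made up 86.6%, 79.8% and 87.1%. These medians and shares were not tested.

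Whether development differed between PNS and Ctrl cortex was tested as the difference of the 2 changes with age, which uses separate libraries on each side. In edgeR 0 of 17139 genes passed in either direction (0% and 0%), with a smallest adjusted p of 0.378. Genes with an unadjusted p under 0.05 numbered 1037, where 857 would be expected with no difference at all. The limma test called 0 genes and DESeq2's test 9. Leaving out PNS P1 replicate 4 gave 89, all with a lower change in PNS. The PNS P1 libraries that then remain are those with high bulb levels. They had 78.7 to 174.5 CPM of Cdhr1, against a mean of 10.45 CPM in Ctrl P1. The part of bulb tissue in these 89 calls was not tested. In the edgeR fit of all 16 libraries no gene of the 35 lists passed, which follows from the 0 genes passing there. Across genes the changes had a Pearson r of 0.938 and a Spearman rho of 0.942, with a median absolute gap of 0.125 on the log2 scale (genes are not independent replicates). Of the genes called in PNS development 89.3% were called in the same direction in Ctrl development, and of those called in Ctrl 90.7% in PNS, with 8 genes called in opposite directions.

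**Figure D5:**
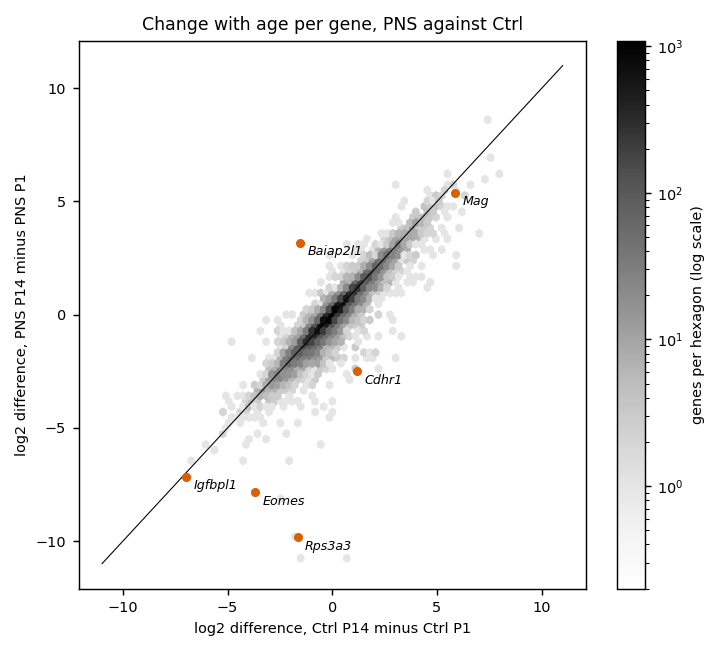
Log2 difference with age per gene, PNS (P14 minus P1, vertical) against Ctrl (horizontal), as gene counts per hexagon on a log scale, with 6 genes marked after their values were seen. Most genes lie along the diagonal; Cdhr1 has -2.48 in PNS and 1.18 in Ctrl, and the test of the difference did not call it.

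The 10 genes named for the smallest p for that difference, 5 in each direction, differed by 0.32 to 4.71 on the log2 scale in size. Id3, an inhibitor of neurogenic factors, had 36.8 to 42.8 CPM at PNS P14 and 56.5 to 59.8 CPM at PNS P1, and its change was 0.59 lower on the log2 scale in PNS than in Ctrl (edgeR adjusted p = 0.378). Plat, a plasminogen activator, and Itih5, a hyaluronan-binding protein of vessels and meninges, had differences of -0.52 and -0.88 at the same adjusted p. Cygb, a globin of fibroblast-like cells, had 39.9 to 43.0 CPM at PNS P14 and 24.8 to 31.8 CPM at PNS P1, with a difference of -0.60. H2-Q1, with a difference of -3.69, rested on 8 reads at P14 and 128 at P1. In the other direction Kcnn1, a calcium-activated potassium channel, had 40.9 to 44.3 CPM at PNS P14 and 25.2 to 30.4 CPM at PNS P1 with a difference of 0.52, and the semaphorin Sema3c a difference of 0.44. Rpl34 had a difference of 0.32, the BMP and Wnt antagonist gene Sostdc1 one of 1.23 and Baiap2l1 one of 4.71, the last with 13.3, 17.4, 0.23 and 8.70 CPM at P14. None of these 10 genes passed in edgeR, while 6 of them (Id3, Plat, Itih5, Cygb, Kcnn1 and Rpl34) were among the 9 that DESeq2's test called, with adjusted p of 0.0077 to 0.043. The medians of the myelin list were 2.05 in PNS and 2.30 in Ctrl, those of the GABA list 0.99 and 1.25, and those of the bulb list -1.83 and 0.91. Against PNS P1 replicate 4 alone these PNS medians were 2.22, 1.58 and 0.41. Other lists also differed, such as perineuronal net and matrix (-0.07 and 0.42) and meningeal fibroblasts (-1.94 and -1.17). Others did not, such as fetal growth and imprinted genes (-1.23 and -1.23). Differences of list medians were not tested.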

How the data were processed

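Per the labels' protocols, RNA came from an RNeasy micro kit and the libraries from an in-house poly(A) method. Per the submitters' processing notes cutadapt, STAR 2.7.3a, HTSeq, DESeq2 and GRCm38 were used; annotation release, strand and gene filter were not given in the sources used here, and overlapping, antisense or duplicated genes are therefore uncertain. The deposited signal values are read counts per gene normalized by the authors with size factors, 1 table per age. Dividing each by what 1 read is worth in its library gave whole reads for 100% of positive values (tolerance 0.0055), and the count test planned for that case was used. Of the shared genes 18242 matched the GENCODE vM21 annotation of GRCm38.

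Genes passing edgeR's filterByExpr (17139, with 1129 left out) were fitted with edgeR 4.0.16 (quasi-likelihood, TMM, R 4.3.3) in 1 model of the 4 groups and all 16 libraries, with Benjamini-Hochberg adjustment over all genes tested at 0.05. The script was tested on simulated data. Deviations of same-numbered PNS libraries from their group means had correlations of 0.0272, 0.108, -0.366 and -0.266 between the ages. These gave no sign of pairing but cannot show whether same-numbered samples share a litter or batch. The main fit used no block. Alternatives were DESeq2 size factors or total reads as scaling, no low-count filter, only the 8 PNS libraries, DESeq2 1.42.0, limma 3.58.1 on log2(CPM + 1), a replicate block, and libraries left out.

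Genes, lists and tests were chosen with earlier results of these data known, and some lists follow that earlier work. Named were a set of anchor genes, the 10 with the largest difference each way at a mean of at least 20 CPM without overlap, up to 4 genes a list at a mean of at least 5 CPM, and the 5 with the smallest p each way for the difference between PNS and Ctrl development. List members beyond these were named after their values were seen. Counting intervals cover counting error only. Some genes and ratios are not reported here.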

Additional observations from a re-analysis of the deposited data

Results flagged for a closer look

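Of 366 groups of 4 values of named genes and ratios, 26 held 1 library far from the other 3 (by Dixon's gap criterion), where chance gives about 1 in 20, or 18.3. Of these, 12 were PNS P14 replicate 4. Values are TMM-scaled CPM unless a ratio is named, and no explanation was tested.

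In PNS P14 replicate 4 the higher values were 15.2 for Nr2f2, 459 for Dnmt3a, 1626 for Tubb3, 461 for Grin2b, 275 for Reln, 729 for Cck, 102 for Pdgfra and 458 for Hbb-bs, and a Slc17a7 to Slc17a6 ratio of 136. The lower values there were 34.9 for Hapln1, 13.3 for Hsd11b1 and 395 for Gria2. The other P14 libraries had 69.9 to 72.6 CPM of Hapln1.

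In PNS P14 replicate 3, Igfbpl1 (2.48) and Sst (343.5) were high and Cntnap1 (160.1) and Rps3a3 (0) were low. The Rps3a3 gap is that between 0 and 1 read.

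In PNS P1 replicate 3, Plekhg1 (26.2), Kcnc1 (79.4) and Nr3c2 (26.0) were high and Neurog2 (7.40) was low. In PNS P1 replicate 4, Gpc2 (46.2), Crym (125.5) and Scn3a (78.9) were high. In PNS P1 replicate 1, Hapln1 (8.37) and Neu4 (0.668) were high, and in PNS P1 replicate 2, Grin2a (5.45) was low. In each of these groups except Nr3c2, Pdgfra and Hbb-bs the P14 values did not overlap the P1 values.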

How the results depend on the processing

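The counts of genes higher and lower at P14 stayed within 1.5 times of the main ones under every alternative run: 4121 to 6162 higher and 5267 to 8660 lower, and 5661 to 5887 and 6251 to 6486 with 1 PNS library left out. At 2-fold, limma on log2(CPM + 2) gave 1651 higher and 1228 lower, and on log2(CPM + 1) 1547 lower, where edgeR gave 2575 and 2704; the pseudocount itself pulls low genes towards 0. A replicate block was run although it is not known whether same-numbered samples share more than a number. It gave 5287 higher and 5512 lower, and 0 for the difference between PNS and Ctrl development. That difference gave 9 genes with DESeq2's test, 4 (Myl4, Myh6, Tnnt2 and Ckm, named after their values were seen) against PNS P1 replicate 4 alone, and 0 to 89 with 1 library left out (89 without PNS P1 replicate 4, 1 without Ctrl P14 replicate 4, Lrat); the cause was not tested.

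Of 3266 values of 172 named genes over 19 alternatives, 3142 kept direction and side of the threshold, 81 lost the call, 15 gained one and 28 changed sign. With total reads the log2 difference was -0.020 for C1qa, -0.25 for Fezf2, -0.018 for Gabra5, -0.20 for Gfap, -0.083 for Gria1 and -0.032 for Htr3a, since the whole distribution shifts by -0.27. Without PNS P1 replicates 1, 2 and 3 it was 0.67 for Calb2, 2.28 for Cdhr1, -0.29 for Fezf2, 0.0060 for Ifitm3, 0.72 for Npy, 0.11 for Pdgfra, 0.12 for Slc12a2, 0.30 for Slc17a6, 0.078 for Tshz1 and 0.17 for Tyrobp. Without replicates 2 and 3 it was 0.22 for Calb2, -0.15 for Fezf2, 0.27 for Npy, 0.037 for Slc12a2 and 0.038 for Slc17a6. With 1 library left out the range was -0.052 to 0.14 for Fezf2, -0.048 to 0.18 for Gfap, -0.30 to 0.95 for Hbb-bs and -0.26 to 0.060 for Npy. The cause was not tested. Of the 22 lists with a median of at least 0.5 in size, 2 medians changed sign over these alternatives. These were red cells, to -0.30 without PNS P14 replicate 4, and olfactory bulb, to 0.41 without PNS P1 replicates 1, 2 and 3. Among the 13 lists with a smaller median, 35 medians changed sign over the 19 alternatives. Depth limits genes of a few reads, such as Eomes, Ttr, H2-Q1 and Rps3a3 at P14.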

Other observations

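Some genes were listed at 1 age only and belong to no comparison. At P14 these included Colq, the collagen tail of acetylcholinesterase, with 7.12, 9.67, 7.27 and 8.06 CPM, and the oligodendrocyte genes Opalin (0.87, 1.79, 2.30 and 0.28 CPM) and Nkx6-2 (0.63, 1.49, 1.99 and 0.28 CPM), both lowest in the library with the lowest myelin level. At P1 they included Tfap2e, a factor of olfactory neurons, with 1.44, 4.49, 3.25 and 0.063 CPM, and Raet1e with 1.33, 5.11, 4.11 and 0.047 CPM, both lowest in the library with the fewest bulb reads. The mast cell proteases Tpsb2 (0.28, 1.47, 3.06 and 2.60 CPM) and Cma1 (0.19, 1.89, 2.22 and 2.06 CPM) were low in PNS P1 replicate 1 only.

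In PNS P1 replicate 4 the muscle genes Tnnt2 (2.19 CPM) and Ckm (0.65 CPM) also stood above the other P1 libraries, which had 0.036 to 0.13 CPM and 0 to 0.018 CPM. These genes were looked at after their values were seen.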
